A study of Mus musculus with 12 samples.

Results

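The genes described here encode the proteins of the cytoplasmic ribosome and were compared in mouse frontal cortex with and without ADAR2, an enzyme that turns adenosine into inosine in double-stranded RNA. They were chosen by symbol: every listed gene named Rpl or Rps followed by a digit, together with Rplp0, Rplp1, Rplp2 and Rpsa. The 10 kinase genes whose symbols start with Rps6k, 5 paralogs listed as ribosomal protein-like and the binding protein gene Rps19bp1 were left out. Of these paralogs, Rps4y2 has no -like suffix in its symbol and was left out by that list alone. The 14 copies with -ps in their symbol were kept as a group of their own. This gave 76 ribosomal protein genes of 15191 listed genes: 31 of the small subunit, 42 of the large subunit and 3 of its stalk. Total RNA came from 12 libraries of male C57BL/6 mice. The knockout group was 6 cortices of genotype Adar2-/- with Gria2R/R, and the control group was 6 cortices of litter mates of genotype Adar2+/+ with Gria2R/R. Both groups thus carried the Gria2R allele on both chromosomes, in which the genome itself encodes an arginine that ADAR2 otherwise makes by editing, so that neither group is wild type. The labels give the deletion as the genotype of the animal and name no promoter or cell type that restricts it, and the age of the mice is not given in the sources used here.

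Ribosomes take up nearly all of their proteins in equal number, and the mRNAs of these proteins are among the most abundant in any cell. These mRNAs begin with a run of pyrimidines, the terminal oligopyrimidine (TOP) motif, through which the mTOR kinase and the RNA-binding protein Larp1 set their translation together. In neurons ribosomal protein mRNAs are also carried into dendrites and axons. The genes have left many processed pseudogenes in the genome, which are intronless copies of the mRNA so alike in sequence that short reads can be hard to place.

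The gene values were the authors' mean normalized read count over both of their 2 conditions, the ratio of the conditions, its p-value and a p-value adjusted over all genes. The level in each condition was computed from that mean and that ratio, taking 6 libraries in each. Values per library are not used here, so no SD over animals can be given, and the spread between libraries enters only through the authors' p-values. The header of the gene table calls its conditions A and B and names no genotype, so every difference of a gene is given as A over B on the log2 scale, with no genotype attached. The table of exon bins does name control and Adar2, and its differences are given as knockout over control.

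The sequences shown first are those of the gene pair with the largest differences, Rps18 and its processed pseudogene Rps18-ps3. Rps18 encodes a protein of the head of the small subunit, and lies on chromosome 17 from 33951999 to 33956001, minus strand, on GRCm38 in the GENCODE M21 annotation. Rps18-ps3 lies on chromosome 8 from 107262793 to 107263248, minus strand, and is annotated as a processed pseudogene. Over the 456 coding bases of Rps18 the pseudogene had 3 substitutions and was 99.3% identical. With positions counted from the A of the start codon, they were G181C in exon 3, A337C in exon 4 and C430T in exon 5 of the 5 exons of the Rps18 transcript. Each window below holds 29 bases of the coding strand, and the capital marks the base at which gene and copy differ.
Rps18, bases 167 to 195: ctggagaactcacgGaggatgaggtggag
Rps18-ps3, same bases: ctggagaactcacgCaggatgaggtggag
Rps18, bases 323 to 351: gtgaggacctggagAggctgaagaaaatt
Rps18-ps3, same bases: gtgaggacctggagCggctgaagaaaatt
Rps18, bases 416 to 444: ctggccgcaggggcCgaactgtgggtgta
Rps18-ps3, same bases: ctggccgcaggggcTgaactgtgggtgta
Between and beside these bases the pair shared identical runs of 180, 155, 92 and 26 bases.

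The start sites of the ribosomal protein genes were searched for the pyrimidine run of the TOP motif. RefSeq promoters on GRCm38.p6 were matched for 56 of the 76 genes, with 66 promoters in all. A run of at least 8 bases that were each C or T, on the sense strand between 25 bases before and 15 bases after the annotated start, was present in 28 of the 66 promoters (42.4%), against 5440 of all 32851 promoters (16.6%). Window and run length were chosen after the sequences had been seen, and a match describes letters, not a working site. The 4 windows below each hold 29 bases around the start with the run in capitals: they show the 2 genes that stood apart from the others in level, Rps18 and Rps16, beside Rps6, the best known target of the S6 kinases, and Rpl38, the large subunit gene with the highest level per length.
Rps18, chr17:33955652-33955680, minus strand: tacgtcacttccgCTCTCTCTTCCacagg
Rps16, chr7:28350674-28350702, plus strand: cccgcttctgtcgtgacgtagcactcaat
Rps6, chr4:86857354-86857382, minus strand: aagcggaagtcgggCCTCTTTTTCgtgac
Rpl38, chr11:114668565-114668593, plus strand: agcggaagcctcgTTCTTTCCCCgttctc
No such run was in the Rps16 window, which says only that these letters are not there. GENCODE M21 begins the Rps16 gene at 28350652, upstream of the bases searched, so the sequence at that start was not searched.

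As a check of the tissue, 35 of 36 marker genes of 6 cell types were listed, the exception being the neuronal marker Rbfox3, and none of them had a p-value under 0.05. Summed neuronal markers had a count of 154405.0 in A and 152166.9 in B, against 61045.7 and 59577.1 for astrocytes, 22291.6 and 22732.0 for oligodendrocytes, 8037.2 and 7802.6 for microglia, 4835.1 and 4790.8 for endothelium and 8451.4 and 8181.5 for blood. In whole tissue, fewer cells of a type and less RNA per cell cannot be told apart.

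No ribosomal protein gene differed between the conditions at an adjusted p under 0.05 (0 of 76), where 0.0197% of all listed genes did. In the deposited p-values, 1 of the 76 had an unadjusted p under 0.05 (1.32%), against 1.86% of all genes. It was lower in A, as were 1.02% of all genes at that p, and 0 members were higher at that p, where 0.843% of all genes were. The 76 genes summed to a normalized count of 366957.2 in A and 361140.7 in B, which was 1.30% and 1.29% of the counts of all listed genes. The sum was 1.61% higher in A. As a group they were tightly packed: 74 of 76 (97.4%) differed by less than 0.1 in log2, against 68.3% of all genes and 87.9% of the 4807 genes whose mean count was at least that of the lowest ribosomal protein gene. Other lists came near this share, with 94.6% of proteasome, 92.0% of mitochondrial ribosomal protein and 91.7% of respiratory chain genes. The elongation factor list was at 100%, the initiation factor list at 84.9% and the ribosome assembly list at 82.35%.

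Most of the small differences had the same sign. Of the 76 genes, 59 (77.6%) were higher in A at any size, where 52.9% of all listed genes were. Their median log2 difference was 0.028 with quartiles at 0.007 and 0.051, against a median of 0.006 and quartiles at -0.051 and 0.070 for all genes. Among the 4807 genes of like or higher count, 52.1% were higher in A and the median was 0.003. The subunits were alike in this description, with 24 of 31 small subunit genes, 32 of 42 large subunit genes and 3 of 3 stalk genes higher in A, and medians of 0.028, 0.028 and 0.027. Genes of one sample share their libraries and scaling and are no replicates of each other, so these shares carry no test.

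**Figure D1:**
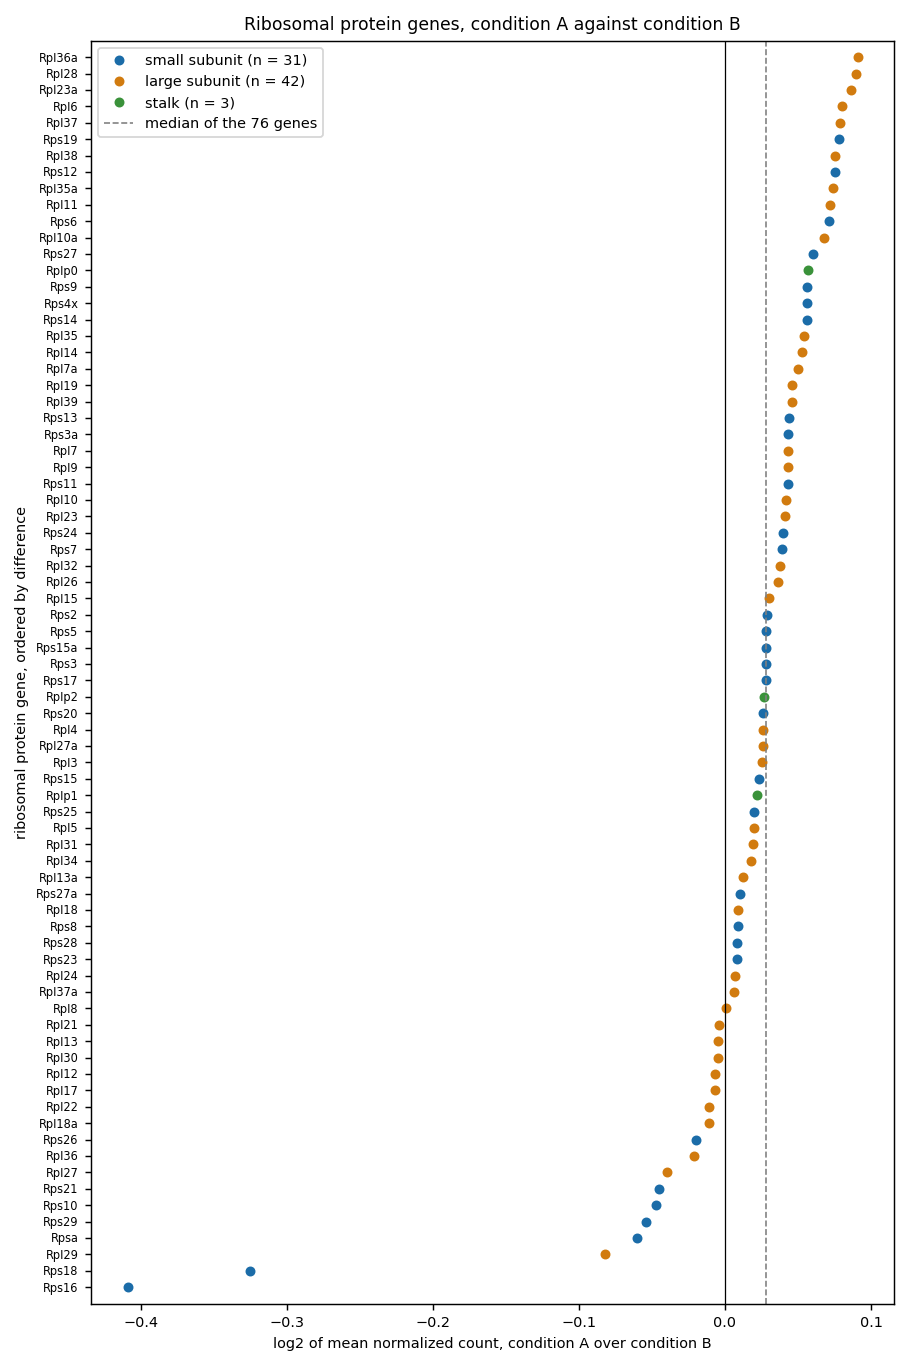
Each point is 1 of the 76 ribosomal protein genes, ordered by its log2 ratio of mean normalized count, condition A over condition B, on the x axis, with colours for the small subunit, the large subunit and the stalk. Between -0.08 and 0.09 lie 74 genes, spread over all 3 colours, and only Rps18 at -0.32 and Rps16 at -0.41 lie outside.

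Among small subunit genes, Rps16 was the one with the smallest p. Rps16 encodes a protein whose tail reaches the transfer RNA in the peptidyl site, and lies on chromosome 7 from 28350652 to 28353155, plus strand (GRCm38). Its mean normalized count by the authors' deposited table was 1174.5 in A and 1559.7 in B. The difference of -0.41 in log2 (1.33-fold) by the authors' deposited table had p = 0.0440 before adjustment and 1 after it. Rps18 was next: the authors' deposited table gave 2896.5 in A and 3627.1 in B. Its log2 difference of -0.32 (1.25-fold) by the authors' deposited table had p = 0.0519 before and 1 after adjustment, so that neither gene passed. Both were lower in A, against the sign of most other members.

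These 2 genes were not alone in the table in being abundant and apart. Among the 5893 listed genes with a mean count of at least 1000, 63 (1.07%) had a log2 difference of at least 0.3 in size, 18 lower and 45 higher in A, and 14 of the 63 had a p under 0.05. All 76 ribosomal protein genes were above that count, and Rps16 and Rps18 were the 2 among the 63.

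The other small subunit genes with a known role lay close together. The authors' deposited table gave Rps6 a mean count of 7403.9 in A and 7049.3 in B (log2 difference 0.07, p = 0.250). Rps14, whose partial loss underlies the anaemia of the human 5q deletion, had 6387.0 and 6143.9 by the authors' deposited table (0.06, p = 0.343). Rps19, the gene most often mutated in Diamond-Blackfan anaemia, had 3231.5 and 3062.4 by the authors' deposited table (0.08, p = 0.283). All 3 were slightly higher in A, with adjusted p-values of 1.

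Rpsa, known also as the laminin receptor, was the most abundant small subunit gene by count. Its means by the authors' deposited table were 9213.8 in A and 9605.8 in B, a log2 difference of -0.06 (p = 0.659). Rps29, a small zinc-binding protein, had 1909.3 and 1982.2 by the authors' deposited table (-0.05, p = 0.775). Rps10, which is ubiquitylated on stalled ribosomes, had 1916.2 and 1979.5 by the authors' deposited table (-0.05, p = 0.842). These 3 and the large subunit gene Rpl29, a protein rich in lysine, were the lowest in A after Rps16 and Rps18, yet none of their differences reached 0.1 in log2. Rpl29 was at 2596.4 and 2748.7 by the authors' deposited table (-0.08, p = 0.487).

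Of the large subunit genes, none had a p under 0.05, and their log2 differences ran from -0.08 to 0.09. The highest in A was Rpl36a, with 2212.0 in A and 2076.3 in B by the authors' deposited table (0.09, p = 0.181). Rpl28 followed by the authors' deposited table with 2887.3 and 2712.6 (0.09, p = 0.304). Rpl23a, which sits at the exit of the peptide tunnel where the signal recognition particle docks, had 5201.6 and 4901.7 by the authors' deposited table (0.09, p = 0.225). Next came Rpl6, with 6736.2 and 6375.0 by the authors' deposited table (0.08, p = 0.312), and Rpl37, a zinc-binding protein. For Rpl37 the authors' deposited table had 4084.0 and 3865.6 (0.08, p = 0.274). Together with Rps19 these were the 6 highest in A, and no p among them was under 0.1.

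The most abundant members also differed by less than 0.1 in log2. Rpl3, which reaches the peptidyl transferase centre, had the highest mean count, 13942.8 in A and 13707.0 in B by the authors' deposited table (0.02, p = 0.611). Rpl4, whose loop lines the peptide tunnel, had 10999.0 and 10804.3 by the authors' deposited table (0.03, p = 0.679). Rpl19, a protein of a bridge between the subunits, was at 9338.2 and 9047.7 by the authors' deposited table (0.05, p = 0.454). Rpl13a, known for silencing inflammatory mRNAs outside the ribosome, was at 9162.7 and 9088.6 by the authors' deposited table (0.01, p = 0.677). With Rpsa these are the 5 members of highest count.

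Rpl5 and Rpl11 bind 5S ribosomal RNA and, when ribosome assembly fails, the p53 regulator Mdm2. The authors' deposited table gave Rpl5 8864.1 in A and 8742.7 in B (0.02, p = 0.639), and Rpl11 4392.8 and 4178.2 (0.07, p = 0.260). Rpl10, which joins the subunit last and is linked to autism through rare mutations, had 5396.6 and 5242.7 by the authors' deposited table (0.04, p = 0.492). Rpl22, which binds a viral RNA and can be replaced by its paralog Rpl22l1, was at 2610.0 and 2629.4 by the authors' deposited table (-0.01, p = 0.914). Rpl38, known for its part in translating Hox mRNAs, was at 4065.4 and 3859.5 by the authors' deposited table (0.07, p = 0.213). Of these 5 genes, Rpl22 alone was lower in A, by less than 0.02 in log2.

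The stalk recruits the elongation factors to the ribosome. Its anchor Rplp0 had 5053.7 in A and 4856.7 in B by the authors' deposited table (0.06, p = 0.339). The paired proteins came next: Rplp1 had 7871.6 and 7752.4 by the authors' deposited table (0.02, p = 0.466), and Rplp2 had 2453.2 and 2407.0 (0.03, p = 0.666).

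Ribosomes take up nearly all of these proteins in equal number, with Rplp1 and Rplp2, which are present in several copies, as an exception. The read counts of the genes per length were not equal. Per kilobase of coding sequence, with the mean over both conditions, the levels ran from 3121.3 normalized counts for Rps16 to 22842.2 for Rplp1, a 7.32-fold range with a median of 8836.6. Rps3a (3925.0) and Rps10 (3935.0) followed Rps16 at the low end. At the high end Rpl38 (18869.0) and Rps21 (17924.3) came after Rplp1. Large subunit genes started at 4871.9 for Rpl27, and the stalk genes Rplp0 and Rplp2 were at 5210.5 and 7043.8. Short mRNAs gain relative to their coding length, since reads from untranslated ends are counted as well, so neighbours in this order were not compared, and no spread over libraries is known for them. Near-identical copies in GENCODE M21 ranged from 0 for Rps3 to 77 for Rpl21, and how reads with several alignments were counted is not given. Their effect on this range was not tested.

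The pair of Rps18 and Rps18-ps3 held the largest difference among all members and copies. Rps18-ps3 had a mean normalized count of 1122.6 in A and 379.3 in B by the authors' deposited table. That is 2.96-fold higher in A (log2 difference 1.57), with p = 0.00218 before and 1 after adjustment by the authors' deposited table. By p it was 27th of the 15191 genes and did not pass. A difference of at least 1 in log2 was seen for 33 genes (0.217%), 7 of them higher in A. Of the 33, 8 had a mean count of at least 500, and among these 8 Rps18-ps3 was the 1 higher in A.

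Gene and copy differed by almost the same number of counts in opposite directions. The difference of A from B was -730.6 normalized counts for Rps18 and 743.3 for Rps18-ps3. Their sum was 4019.1 in A and 4006.4 in B, a difference of 12.69 counts and of 0.005 in log2. The copy's count was 23.0% of that of the gene over both conditions, the highest share of the 34 gene and copy pairs. Whether the counting divided reads of the pair differently between libraries was not tested, since reads are not used here.

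**Figure D2:**
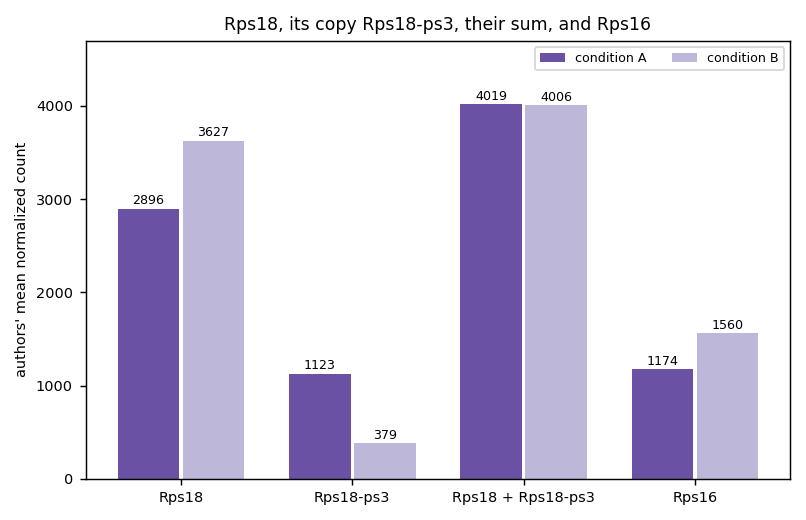
Bars from 0 give the mean normalized count in condition A (dark) and B (light) for Rps18, Rps18-ps3, their sum and Rps16. Rps18 is lower and Rps18-ps3 higher in A, while the summed bars of 4019.1 and 4006.4 are nearly level, and Rps16 is lower in A with no listed copy beside it.

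Rps16 had no such partner in the table. In the GENCODE M21 transcripts 7 copies of its coding sequence were found at 90% identity or more over at least 80% of its length, and 0 of them were listed. For Rps18 there were 13, of which 1 was listed. Symbols of the table were found in GENCODE M21 for 13253 of 15191 genes, so a copy listed under an older name can be missed.

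Most of the 14 copies named -ps were lower in A. They had 4 members higher and 10 lower, where 47.1% of all listed genes were lower, and a median log2 difference of -0.080. Among the 10 were Rps19-ps3 and Rps25-ps1, which were level to within 0.05 counts. A p under 0.05 was given for 1 of the 14 (7.14%), Rps18-ps3, against 1.86% of all genes. The summed count of the 14 copies was 2790.0 in A and 2186.0 in B, and without Rps18-ps3 it was 1667.4 and 1806.7, which turns the direction. Without it 3 of 13 were higher in A and the median was -0.089. Copies have low counts: apart from Rps18-ps3 they ranged from 24.04 for Rpl30-ps8 to 522.5 for Rpl10-ps3 over both conditions, so the precision of each is lower than that of its gene.

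Next in abundance after Rps18-ps3 were Rpl10-ps3, Rpl27-ps3 and Rps27a-ps2. Rpl10-ps3, identical to Rpl10 over its whole coding sequence, had 505.6 in A and 539.4 in B by the authors' deposited table (-0.09, p = 0.480). Rpl27-ps3, identical to Rpl27, had 297.9 and 350.4 by the authors' deposited table (-0.23, p = 0.182), where Rpl27 itself had 1960.5 and 2015.0. Rps27a-ps2 had 155.5 and 172.6 by the authors' deposited table (-0.15, p = 0.310), beside 4130.0 and 4102.4 for Rps27a, which encodes a ubiquitin fused to the ribosomal protein. All 3 copies were lower in A, and none passed.

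Among the rarer copies, the authors' deposited table put Rpsa-ps10 at 142.5 in A and 151.6 in B, Rpl9-ps6 at 118.8 and 137.9, and Rpl9-ps4 at 101.0 and 106.1. Their genes Rpsa and Rpl9 differed in sign from each other, with -0.06 and 0.04 in log2 by the authors' deposited table. Rpl23a-ps3 was at 95.99 and 102.1 and Rps13-ps1 at 78.18 and 84.79 by the authors' deposited table, both lower in A, while Rpl23a and Rps13 were higher. Rpl13-ps3 (50.34 and 45.34) and Rpl30-ps8 (26.08 and 21.99) were higher in A by the authors' deposited table. Rps19-ps3 (37.58 and 37.59) and Rps25-ps1 (25.55 and 25.6) were level to within 0.05 counts by the authors' deposited table. The genes Rpl13, Rpl30 and Rps25 were at most 0.02 from 0 in log2. The smallest p of these copies, that of Rpl9-ps6, was 0.174 by the authors' deposited table.

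A wider search added copies that carry other symbols. By symbol or coding sequence, 34 listed copies of 29 ribosomal protein genes were found, at 93.1% to 100% identity (median 99.4%). Of the 34, 24 were lower in A and 10 higher, where 47.1% of all listed genes were lower, and the median was -0.069. Rps18-ps3 was again the 1 with a p under 0.05. In 24 of the 34 pairs gene and copy differed in opposite directions. With 77.6% of the members higher in A and 24 of 34 copies lower, opposite signs are frequent whichever gene and copy are paired. The pairs counted as opposite include those of Rps19-ps3 and Rps25-ps1, copies that were level to within 0.05 counts. An exchange of reads within pairs was not tested.

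Outside Rps18 the copies moved few counts. Across the other 33 pairs the copy's difference ran from -87.52 to 44.43 counts, and adding the copy changed the log2 difference of its gene by at most 0.065, against 0.330 for Rps18. The largest of these was Gm10263, a copy of Rps28 with 1 mismatch, at 303.9 in A and 391.4 in B by the authors' deposited table (-0.37, p = 0.0583). Rps28, which encodes one of the smallest ribosomal proteins, had 1639.6 and 1630.7 by the authors' deposited table (0.01). Here, unlike Rps18, the gene's count did not mirror that of the copy: the differences were 8.929 and -87.52 counts. Gm8292, a copy of Rps24, had 664.0 and 619.6 by the authors' deposited table (0.10, p = 0.207). BC004004, which matched Rpl21 and was the copy with the highest count, had 1569.3 and 1571.5 by the authors' deposited table (p = 0.825).

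**Figure D3:**
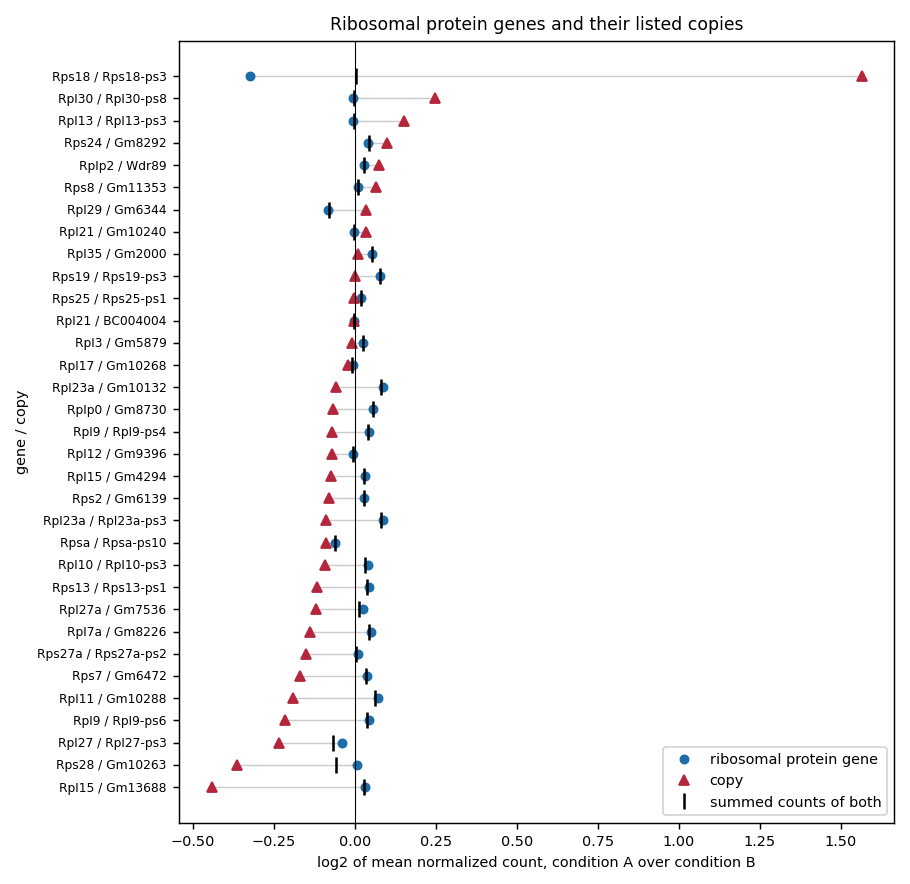
For 33 of the 34 pairs, the circle is the log2 ratio of the ribosomal protein gene, the triangle that of its copy and the bar that of their summed counts, condition A over condition B. Circles and bars nearly coincide in all pairs drawn but those of Rps18, Rps28 and Rpl27, and the Rps18 pair has its bar at 0.005 between a gene at -0.32 and a copy at 1.57.

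**Figure D4:**
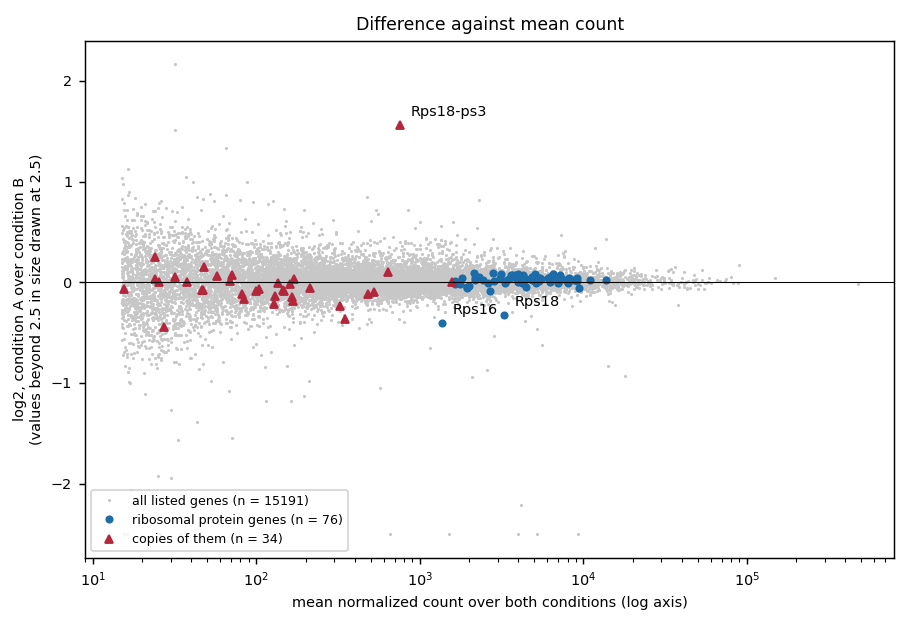
The log2 ratio of condition A over condition B is plotted against the mean normalized count on a log axis for all 15191 genes (grey), the 76 ribosomal protein genes (circles) and their 34 copies (triangles). The circles run from Rps16 at a mean count of 1367.1 to Rpl3 at 13824.9. They form a narrow band, with Rps16 and Rps18 below it. Rps18-ps3 lies alone above the cloud at its count of 751.0.

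Exon usage was compared in 662 bins of 75 ribosomal protein genes, a bin being a stretch of exon counted on its own. No bin of Rpl24 was analysed here. At an adjusted p under 0.05 there were 0 bins, where 0.00738% of all bins with a p-value had one. An unadjusted p under 0.05 was given for 7 bins (1.06%), against 1.67% of all bins. In the knockout 317 bins were higher and 345 lower than in the control, or 47.9% higher against 50.3% of all bins, and the median log2 difference was -0.001. Of the bins, 628 (94.9%) differed by less than 0.2, against 89.2% of all, but the ribosomal protein bins had a median count of 843.7 against 91.74 for all bins. At bin counts of 500 or more the shares were 99.75% and 99.73%. Bins of 1 gene are parts of the same transcripts and are not independent, and 191 of the 662 belonged to gene models that the authors had combined with another gene.

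Rps18 was the gene with the most bins under an unadjusted p of 0.05, with 2 of its 5. Bin E003, with a mean normalized count of 2042.0, was lower in the knockout by the authors' deposited table (log2 difference -0.20, p = 0.00278). Bin E001, with a mean of 812.5, was higher by the authors' deposited table (0.17, p = 0.0155). The other 3 bins were at 0.02, -0.00 and 0.04 by the authors' deposited table, with means of 1384.8, 924.2 and 321.5. Both adjusted p-values were 1. Bins carry numbers and no positions, so they could not be matched to the bases at which Rps18 and its pseudogene differ. The single bin of Rps18-ps3, with a mean of 743.5, had no p-value. The 5 bins of Rps16 ranged from -0.10 to 0.13 with a smallest p of 0.125 by the authors' deposited table.

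Most of the remaining bins with small p-values were thinly covered. By the authors' deposited table they were E006 of Rps24 (mean count 20.48, log2 difference -0.55, p = 0.0287) and E016 of Rpl27a (38.08, -0.46, p = 0.0398). A further 3 genes had 1 bin each by the authors' deposited table: E005 of Rpl30 (22.32, -0.49, p = 0.0430), E011 of Rpl5 (42.92, -0.35, p = 0.0455) and E023 of Rps9 (24.36, -0.46, p = 0.0495). These 5 all had a mean count under 50 and were lower in the knockout. Just above 0.05 came E001 of Rps14 (71.85, 0.29, p = 0.0503), E001 of Rps20 (383.0, -0.24, p = 0.0527) and E013 of Rps3 (29.65, -0.40, p = 0.0691) by the authors' deposited table. Rps24 is known for alternative splicing of its last small exons, but whether E006 is one of them cannot be read from a bin number.

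**Figure D5:**
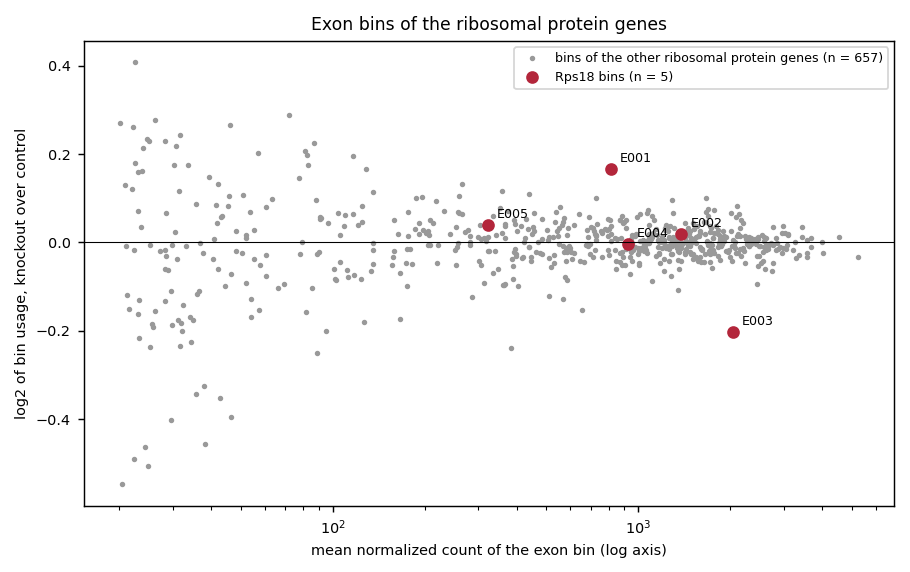
The log2 difference in bin usage, knockout over control, is plotted against the mean normalized count of the bin on a log axis for the 5 bins of Rps18 (large points, with their numbers) and the 657 bins of the other ribosomal protein genes (small points). Above a count of 500 the points lie between E003 of Rps18 at -0.20 and E001 of Rps18 at 0.17, with a bin of Rpsa at -0.15 about as far from 0 as the latter, and larger differences lie at lower counts.

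The deposited list of RNA editing sites was searched for the same genes. Of its 143 sites, 0 lay in a ribosomal protein gene and 0 in a listed copy. The ribosomal protein genes were 76 of 15191 listed genes, and with 143 sites a count of 0 is near that share.

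The genes that serve the same machine were read from lists of the pathway. In none of them did a gene have an unadjusted p under 0.05, where 1.86% of all listed genes did, and 0 were called, against 0.0197% of all. In lists of this size counts of 0 are near those shares. Fau, which encodes a ribosomal protein fused to a ubiquitin-like protein, was at 0.03 and Gnb2l1, the small subunit scaffold also called RACK1, at 0.02 by the authors' deposited table. Of 10 genes listed by symbol as elongation factors 8 were higher in A, with a median of 0.031. Of 53 listed by symbol as initiation factors 25 were, with a median of -0.003. Not all of these are factors: Eef2k and the Eif2ak genes encode kinases, and the Eif2c genes encode Argonaute proteins. Eif2c2 was the highest of the initiation list at 0.29. Eif5a and Eif5a2 were counted in both lists. Ribosome assembly factors had 13 of 34 higher in A (38.2%), where 52.9% of all listed genes were. Their median was -0.022, with quartiles at -0.072 and 0.033 on either side of 0. Most of them were lower in A and most ribosomal protein genes higher, a contrast that was not tested. The assembly gene with the smallest p was Nob1, the nuclease that finishes 18S ribosomal RNA, at 436.2 in A and 487.1 in B by the authors' deposited table (-0.16, p = 0.112).

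Among 15 regulators of the mTOR pathway and of TOP mRNAs, 11 were higher in A with a median of 0.023. Rptor, the scaffold of mTOR complex 1, was at 0.19 (p = 0.0722) and Larp1 at 0.17 (p = 0.196) by the authors' deposited table. The genes with Rps6k symbols, left out of the members, had 7 of 10 higher in A and a median of 0.021. Not all of these belong to the mTOR pathway. Rps6kb1 and Rps6kb2, its S6 kinases, were at -0.10 and 0.02 by the authors' deposited table. Mitochondrial ribosomal protein genes, which serve a separate ribosome, had 44 of 75 higher in A and a median of 0.008, nearer to the 0.006 of all genes than the 0.028 of the cytoplasmic ones. The difference between these lists was not tested.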

How the data were processed

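Trizol RNA of 12 frontal cortex libraries (6 per genotype) was depleted of ribosomal RNA with beads and made into stranded total RNA libraries, per the labels' protocols. The build mm9, SAMtools 01.19.0, DESeq, HTSeq, Bowtie2 2.02.0 and TopHat2 2.0.6 are named, without roles, per the submitters' processing notes. How reads with several alignments were counted is not given in the sources used here.

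Gene levels are mean normalized counts, a signal deposited by the authors over both conditions, per the file headers. The authors' own columns of means per condition A and B name no genotype and were not used; the level in A was computed as 2 times the overall mean divided by 1 plus the deposited ratio, and the level in B as that level times the ratio. The deposited ratio and its log2 value are B over A, and were turned to A over B. The p-values and adjusted p-values are the authors', deposited for genes and exon bins. The exon table holds a deposited mean count per bin, a log2 value of control over Adar2, turned to knockout over control, and a dispersion score from the authors that was not printed. The authors named the deposited exon table for DEXSeq; the version is not given in the sources used here. Editing is deposited as the percent of edited reads per genotype, and the other deposited column, a site's position, was not printed. Genes with a mean count under 15.01 and bins under 20.0 were not listed. The tables had 0 further columns of single samples.

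Since no values per library were at hand, the planned count test could not be used, and calls are the authors' adjusted p under 0.05. The sources give 6 cortices per group and no statement on which animals shared a litter or batch. The authors' p-values set each difference against the spread between these samples, and whether they allow for litter is not known. Summaries were made with Python 3.11.15, pandas 2.3.3 and numpy 2.4.6, and tested on simulated data. Coding sequences came from GENCODE M21 (GRCm38), whose coordinates are of another build than the authors' mm9. A copy was a listed gene named as the member plus -ps, or one with at least 90% identity over 80% of the member's coding sequence (BLAST 2.17.0). The sequence arm replaced a planned comparison of proteins and of descriptions, and by it Wdr89, which encodes a protein of its own, counts as a copy of Rplp2. Named were genes with p under 0.05, the 6 highest and 6 lowest, the 5 of highest count, -ps copies, genes of known role, the 10 bins of smallest p and the gene with most bins under 0.05; Gm10263, Gm8292, BC004004 and single genes of the pathway lists were named after their values were seen. A copy and a pathway gene that the rules name are not reported here. The members and lists were chosen with earlier results of these data known.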

Additional observations from a re-analysis of the deposited data

How the results depend on the processing

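The median log2 difference of the ribosomal protein genes lay between 0.021 and 0.028 under 8 alternatives: count floors of 100 and 1000, a pseudocount of 10, the ratio of summed means, added copies, the median of all genes subtracted, and Rps16 and Rps18 left out. The share higher in A was computed under 6 of these, without the pseudocount and the summed means, and was 70.0% to 79.7%, except 62.7% (69 of 110) with copies by symbol or sequence added. Counts of calls remained 0 for genes and bins at an adjusted p under 0.1 and when p-values were adjusted over the listed genes or bins alone; at an unadjusted p under 0.05 they were 1 gene and 7 bins. The 1 gene became 0 at a p under 0.01 and 2 with -ps copies added. The 7 bins became 2 at a bin mean of at least 50, 1 at a p under 0.01 and 4 without bins of combined gene models. Summing copies with their gene moved Rps18 from -0.325 to 0.005, Rps28 from 0.008 to -0.057 and Rpl27 from -0.040 to -0.067, and the other 26 of 29 genes by less than 0.02. That tolerance stands in for a spread between replicates, which is unknown. Leaving out Rps16 and Rps18, the sequence search for copies, the -ps copies in the count of p-values and the removal of combined bins were chosen after seeing the data. No paired analysis was possible because the tables hold means per condition and no value per library, and for the same reason no library could be left out. Depth per library is unknown, so it cannot be said how small a difference these data could detect.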

Other observations

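Values that belong to no comparison above concern genes beside the ribosomal protein genes. Respiratory chain subunits resembled them in sign: 59 of 72 were higher in A with a median log2 difference of 0.037, 0 were called and 0 had a p under 0.05. The smallest p among them was that of Atp5j2, a subunit of the ATP synthase, with 2705.9 in A and 2377.4 in B by the authors' deposited table (log2 difference 0.19, p = 0.0515). Proteasome subunits, another large complex, had 20 of 37 higher in A and a median of 0.002, again with 0 called and 0 under 0.05. Of 5 genes that host small nucleolar RNAs, 4 were higher in A with a median of 0.027.

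The 5 paralogs named as -like had 3 higher in A and a median of 0.023. They spread more widely than the members, from -0.25 for Rps4y2 to 0.16 for Rps27l by the authors' deposited table, at mean counts of 165.8 and 254.4. The deposited editing list held a site in Rpl7l1, a paralog of Rpl7, at 34.3% in the control and 35.9% in the knockout by the authors' deposited table (adjusted p = 0.950). It also held one in Ncl, the nucleolar protein nucleolin, at 43.1% and 37.5% by the authors' deposited table (adjusted p = 0.735). Neither passed, and the coverage of these sites is not known.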
